A study of Mus musculus with 9 samples.

Results

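The effect of IL-19 loss on the retina was examined in oxygen-induced retinopathy (OIR), by setting the 3 libraries of IL-19 knockout mice (OIR KO) against the 3 libraries of wild-type mice (OIR WT), both with retinopathy. These are 6 of the 9 libraries of the study. The other 3 came from wild-type mice in room air (RA WT), and they serve here as a reference for the level of each gene without retinopathy. All mice are labelled C57BL/6, all tissue is retina, and all were taken at postnatal day 17. The labels do not give the C57BL/6 substrain, the way the Il19 gene was disrupted, whether knockout and wild-type pups were littermates, or whether retinas were pooled. Room air knockouts were not analysed here, and genotype is therefore compared only within retinopathy. All genes of the FPKM table were used (fragments scaled to gene length and to the mapped fragments of the library), and 15678 of its 25108 genes and gene models passed the filter of at least 0.5 FPKM in at least 3 libraries. Differences are OIR KO minus OIR WT on the scale of log2(FPKM + 0.5), with a standard error (SE), and on that scale the change of a weakly expressed gene is understated. A gene is said to have risen or fallen when the limma test gave a Benjamini-Hochberg adjusted p under 0.05 over all genes tested. Nothing states that libraries of a group came from separate animals, so each p-value reflects only how far these libraries spread, which may be technical.

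Interleukin-19 is a cytokine of the interleukin-10 family that signals through the receptor chains IL-20RA and IL-20RB and the transcription factor STAT3, and it is known for shaping macrophage activation and vessel growth. In oxygen-induced retinopathy, pups breathe high oxygen, which prunes the young retinal vessels, and are later moved back to normal air, in which the inner retina with too few vessels turns hypoxic. Hypoxic cells stabilise the alpha subunits of the hypoxia-inducible factors (HIF), which switch on glycolytic enzymes, glucose transporters and vascular endothelial growth factor, and new vessels sprout towards the vitreous.

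Nrl, a transcription factor gene of rod photoreceptors, was abundant in all OIR libraries, at 252 to 330 FPKM. Absolute depth is not known. Relative depth was estimated from the steps of the low FPKM values at 0.949 to 1.14 in the 6 OIR libraries, a rough estimate, since only 35.6 to 38.2% of low values lay within 0.02 of a whole step. OIR KO 2 stood apart from the other knockout libraries. On the leading principal component of the 6 OIR libraries, which held 37.4% of the variance, OIR KO 1 and 3 lay at -21.5 and -28.4, OIR KO 2 at 12.5, OIR WT 1 and 3 at 18.2 and 24.6, and OIR WT 2 at -5.36. The same library had more blood and lens RNA than the other knockout libraries: the alpha-globin gene Hba-a1 was at 26.1, 267 and 32.8 FPKM in OIR KO 1, 2 and 3 and at 303, 168 and 378 FPKM in OIR WT 1, 2 and 3, and Cryaa, a crystallin gene of the lens, reached 7.68 FPKM in OIR KO 2 and no more than 1.01 FPKM in any other OIR library. OIR KO 1 and RA WT 2 had no value above 0 for any of 4 Y-linked genes (Uty, Kdm5d, Ddx3y, Eif2s3y), which the other libraries expressed. All OIR WT libraries expressed them, so Y-linked expression was not balanced between the genotypes. In RA WT 3 these genes were lower than in RA WT 1, with Ddx3y at 6.80 against 13.6 FPKM. Because OIR KO 2 is 1 of only 3 knockout libraries, the main counts and several of the lists that move with it are given with and without it.

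Il19 (ENSMUSG00000016524), the gene disrupted in the knockout, lies on the minus strand of chromosome 1 from 130932656 to 130940115 (GRCm38). It could not be used to check the genotype labels. It was listed at 0 in all 3 OIR KO and all 3 OIR WT libraries (exact two-sided permutation p = 1, where 0.1 is the smallest p that 3 against 3 allow), and RA WT 1 alone had a value, 0.0406 FPKM. The related ligand genes Il10, Il20 and Il24 were listed at 0 in all OIR libraries. Of the 14 family members, 2 had high enough values to be tested, and 0 of these passed limma's test (0 also at an unadjusted p under 0.05). Il20ra, a chain of the IL-19 receptor, was at 0.367, 0.0903 and 0.524 FPKM in OIR KO and 0.108, 0.142 and 0.225 FPKM in OIR WT (log2 difference 0.30, SE 0.21, adjusted p = 0.703). Il10rb, a receptor chain shared by other members of the family, was at 3.19, 3.84 and 2.72 FPKM against 3.40, 2.75 and 3.75 FPKM (log2 difference -0.02, SE 0.16, adjusted p = 0.984). Il20rb, the second chain of the IL-19 receptor, stayed below the filter at 0.285 to 0.487 FPKM in the OIR libraries. The groups overlapped in each of these receptor genes.

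Few genes passed the test between the genotypes. Of 15678 genes, 21 changed (0.134%), of which 9 rose in the knockout (0.0574%) and 12 fell (0.0765%). An Ensembl ID was given for 16 of the 21, and 5 were gene models without an ID. At an unadjusted p under 0.05 there were 810 higher genes (5.17%) and 744 lower genes (4.75%), and the median log2 difference over all genes was -0.0027. The count of changed genes moved with single libraries: it was 12 without OIR KO 1, 42 without OIR KO 2, 11 without OIR KO 3, 11 without OIR WT 1 and 11 without OIR WT 3.

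**Figure D1:**
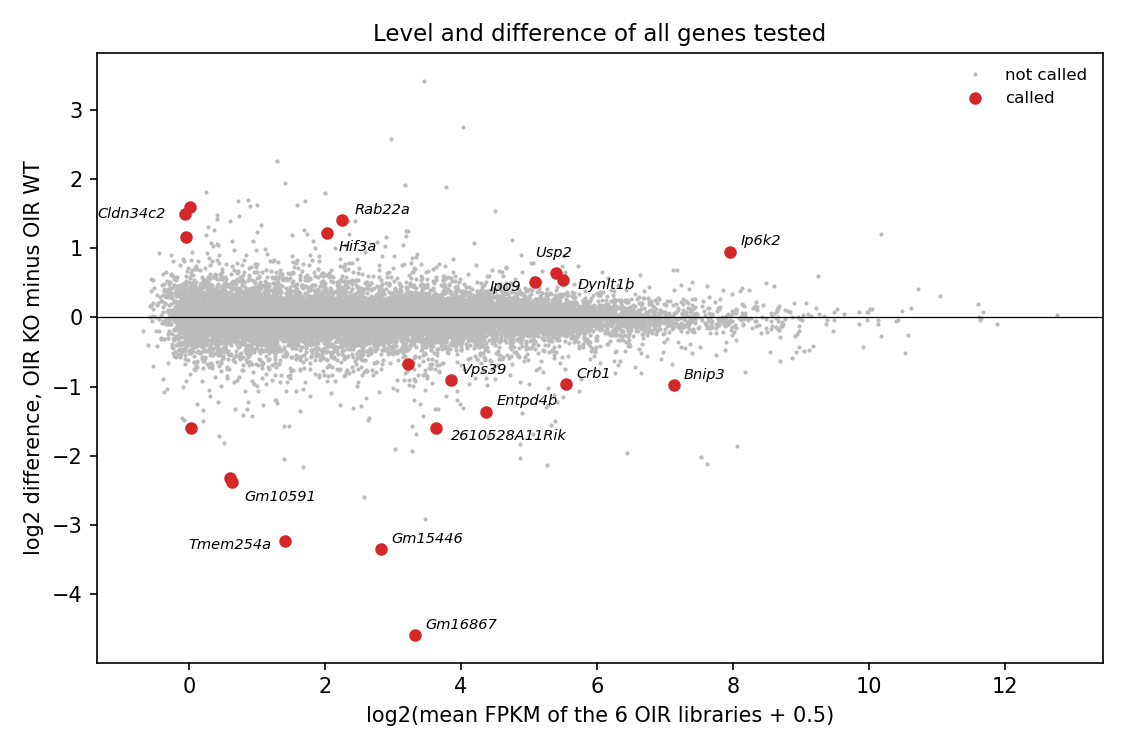
Each point is 1 of the 15678 genes tested. The horizontal axis is the log2 of its mean FPKM plus 0.5 over the 6 OIR libraries, the vertical axis the log2 difference OIR KO minus OIR WT, and red points are the 21 genes that passed limma's test at an adjusted p under 0.05. The changed genes lie between a log2 difference of -4.59 (Gm16867) and 1.59 (a gene model without an ID), and some genes with larger differences than Bnip3 or Ipo9 did not pass.

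The RA WT libraries show in which group a level was unusual. In 16 of the 21 changed genes, all 3 OIR KO libraries lay outside the range of the 6 wild-type libraries, a pattern that 5.13% of all genes tested had. In 11 of the 21, all 3 OIR WT libraries lay outside the range of the other 6, against 6.74% of all genes. Some genes had both patterns and none had neither. These counts describe genes already chosen by the same libraries and are no further test.

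Crb1 and Vps39 fell in the knockout, below OIR WT and RA WT alike. Crb1 encodes a Crumbs protein that keeps the contacts between photoreceptors and Mueller glia at the outer limiting membrane, and its mutations cause retinal dystrophy in humans and, as the rd8 allele, in some mouse lines. It was at 33.2, 29.0 and 31.0 FPKM in OIR KO 1, 2 and 3, at 57.9, 66.8 and 58.9 FPKM in OIR WT, and at 63.6, 56.3 and 56.5 FPKM in RA WT. All 3 knockout libraries lay below all 6 wild-type libraries, by a log2 difference of -0.97 against OIR WT (SE 0.09, adjusted p = 0.00334). Vps39 encodes a subunit of the HOPS complex, which tethers late endosomes to lysosomes. It was at 9.54, 10.2 and 9.17 FPKM in OIR KO, at 18.9, 17.1 and 19.3 FPKM in OIR WT and at 17.8, 18.2 and 18.6 FPKM in RA WT, again with no overlap (log2 difference -0.90, SE 0.08, adjusted p = 0.0025). Both genes kept their call without each library in turn, with adjusted p of at most 0.0293 for Crb1 and 0.0257 for Vps39.

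Rab22a showed the opposite arrangement. Rab22a encodes a small GTPase of early endosomes that controls recycling. Its level was 6.33, 6.94 and 5.93 FPKM in OIR KO, 2.21, 2.33 and 1.78 FPKM in OIR WT, and 6.42, 7.09 and 7.46 FPKM in RA WT. The gene rose in the knockout against OIR WT (log2 difference 1.41, SE 0.12, adjusted p = 0.00205), and the group outside the range of the others was OIR WT, while the knockout overlapped RA WT. The call held without each library in turn (adjusted p at most 0.0149). Among the 24 genes of the HOPS and CORVET tethering complexes with their Rab partners, Rab22a was the risen and Vps39 the fallen member. Of all genes tested, 0.134% changed. All knockout libraries lay above all OIR WT libraries in 3 members (9.73% of all genes) and below them in 4 (7.98%). The median log2 difference of the list was 0.01. The list was chosen with earlier results of these data known, so its changed members are no result about tethering. Vps41, another subunit of HOPS, was at 22.7, 21.1 and 23.3 FPKM in OIR KO and 23.0, 23.6 and 23.1 FPKM in OIR WT (log2 difference -0.05, SE 0.07, adjusted p = 0.863).

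Hif3a rose, and it is the changed gene closest to oxygen sensing on the risen side. It encodes the third HIF alpha subunit, some splice forms of which act as inhibitors of the other alpha subunits. Hif3a was at 5.27, 4.94 and 5.36 FPKM in OIR KO, at 1.76, 2.33 and 1.75 FPKM in OIR WT and at 3.83, 3.85 and 4.66 FPKM in RA WT. The knockout libraries lay above all wild-type libraries and the OIR WT libraries below all others (log2 difference 1.22, SE 0.13, adjusted p = 0.0061). The call held without each library in turn, with adjusted p from 0.00608 to 0.0492. Hif1a and Epas1, the other HIF alpha genes, did not pass the test: Hif1a was at 110, 109 and 112 FPKM in OIR KO and 112, 110 and 104 FPKM in OIR WT (log2 difference 0.03, SE 0.10, adjusted p = 0.97), and Epas1 at 39.9, 41.7 and 38.5 FPKM against 34.6, 33.1 and 32.6 FPKM, without overlap (log2 difference 0.26, SE 0.09, adjusted p = 0.423).

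The other risen genes with a name were Ip6k2, Usp2 and Ipo9, beside 2 members of copied families given below. Ip6k2, an inositol hexakisphosphate kinase, was at 311, 322 and 343 FPKM in OIR KO, 175, 189 and 143 FPKM in OIR WT and 201, 268 and 243 FPKM in RA WT (log2 difference 0.95, SE 0.13, adjusted p = 0.0374). Usp2, a deubiquitinating enzyme with circadian expression, was at 51.0, 50.04 and 50.9 FPKM against 34.2, 34.6 and 28.6 FPKM (log2 difference 0.64, SE 0.10, adjusted p = 0.0476). Ipo9, an importin that carries proteins into the nucleus, was at 40.2, 39.4 and 38.9 FPKM against 27.3, 27.5 and 28.1 FPKM (log2 difference 0.51, SE 0.08, adjusted p = 0.0489). In each of these 3 genes the knockout libraries lay above all 6 wild-type libraries, and the calls depended on single libraries. The call of Ip6k2 was lost without RA WT 3, OIR KO 1, OIR KO 3, OIR WT 1 or OIR WT 3 (adjusted p up to 0.161), that of Ipo9 without any library but RA WT 2 and RA WT 3 (up to 0.253), and that of Usp2 without any 1 of the 9 (0.0587 to 0.229). To fill the risen side to 10 genes, the naming rule added Lfng, a glycosyltransferase that modifies Notch receptors, Shd, an adaptor protein, and Cmpk2, a mitochondrial nucleotide kinase. None of these 3 passed the test, although each group stood clear of the other: Lfng was at 12.2, 11.3 and 10.8 FPKM in OIR KO and 6.34, 4.504 and 5.06 FPKM in OIR WT (log2 difference 1.05, SE 0.17, adjusted p = 0.068).

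**Figure D2:**
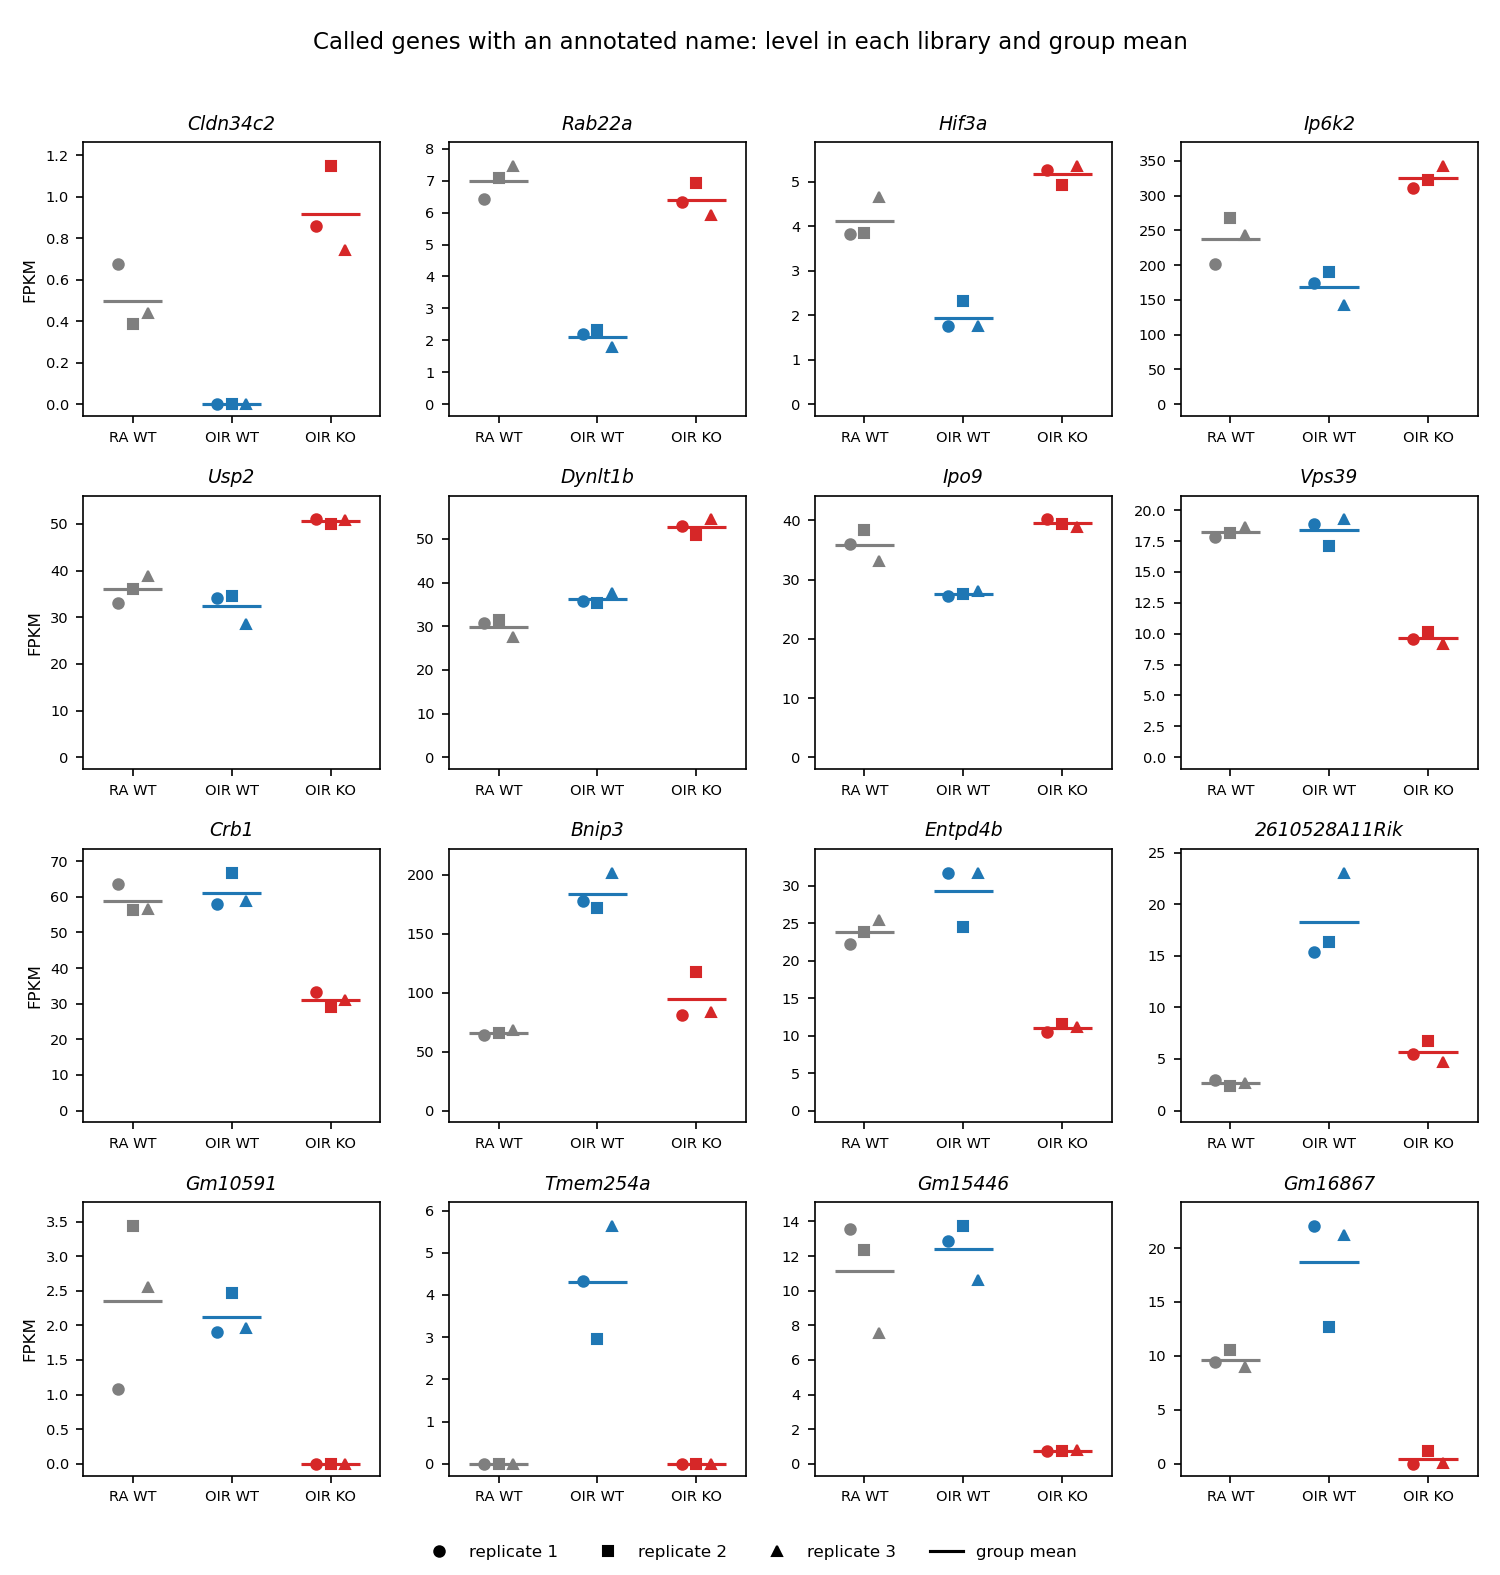
FPKM of the 16 changed genes that have an Ensembl ID, 1 panel per gene, in the 3 RA WT (grey), 3 OIR WT (blue) and 3 OIR KO (red) libraries; symbols mark the replicate and horizontal lines the group mean. In Crb1, Vps39 and Gm15446 the knockout stands below both wild-type groups, in Rab22a OIR WT stands below both others, and in Bnip3 the knockout lies between OIR WT and RA WT.

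Several fallen genes belong to families of near-identical copies, in which the share of reads given to each copy is uncertain, so the copies were also summed. Entpd4b, a copy of a nucleotide diphosphatase gene of the Golgi and lysosome, was at 10.4, 11.5 and 11.2 FPKM in OIR KO and 31.8, 24.5 and 31.8 FPKM in OIR WT (log2 difference -1.36, SE 0.11, adjusted p = 0.00155). Gm16867, annotated on the other strand with its end over the end of Entpd4, was listed at 0 in OIR KO 1 and at 1.20 and 0.0491 FPKM in OIR KO 2 and 3, against 22.1, 12.7 and 21.2 FPKM (log2 difference -4.59, SE 0.44, adjusted p = 0.0061). The sum of Entpd4, Entpd4b and Gm16867 was 18.9, 21.6 and 20.3 FPKM in OIR KO, 53.8, 54.9 and 66.9 FPKM in OIR WT and 48.0, 48.5 and 53.3 FPKM in RA WT, a ratio of OIR KO to OIR WT of 0.346. Gm16867 is not shown to be a copy, and without it the sum of Entpd4 and Entpd4b was 18.9, 20.4 and 20.2 FPKM in OIR KO and 31.8, 42.2 and 45.6 FPKM in OIR WT, a ratio of 0.498. The Gm16867 call was lost with a pseudocount of 0.1, with only the 6 OIR libraries fitted and with the replicate number as a block.

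Tmem254a, a copy of a membrane protein gene, was listed at 0 in all OIR KO and all RA WT libraries and was at 4.33, 2.95 and 5.64 FPKM in OIR WT (limma adjusted p = 0.000165). No fold is given against 0. Tmem254a met the filter only through the OIR WT libraries, and the values of 0 elsewhere narrow the spread that the test used. Its small p-value is therefore not taken as support. The sum over Tmem254a, Tmem254b and Tmem254c was 10.3, 7.19 and 8.61 FPKM in OIR KO against 28.1, 20.1 and 25.5 FPKM in OIR WT, a ratio of 0.354. In RA WT the sum varied widely, at 14.5, 43.9 and 14.4 FPKM, with Tmem254b at 0, 20.2 and 0 FPKM. Gm10591 is named as a copy of the chemokine gene Ccl21 among the RefSeq synonyms. It was listed at 0 in all OIR KO libraries and was at 1.91, 2.47 and 1.96 FPKM in OIR WT and 1.08, 3.44 and 2.55 FPKM in RA WT (adjusted p = 0.0114), a call lost without OIR KO 1, OIR KO 3, OIR WT 1, OIR WT 2 or OIR WT 3 (0.0508 to 0.0709). The sum over 5 Ccl21 copies, a family added after its values were seen, was 0.0390, 0.0301 and 0 FPKM in OIR KO, 3.15, 4.34 and 3.51 FPKM in OIR WT and 2.07, 6.59 and 2.62 FPKM in RA WT. The knockout libraries held almost none of this family, while both wild-type groups expressed it at a low level.

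On the risen side, Dynlt1b, a copy of a dynein light chain gene, was at 53.0, 50.8 and 54.5 FPKM in OIR KO and 35.9, 35.2 and 37.6 FPKM in OIR WT (log2 difference 0.54, SE 0.08, adjusted p = 0.0476). That call was lost without any library but RA WT 3 (up to 0.229), and the sum of the 4 Dynlt1 copies in OIR KO was 1.34 times that in OIR WT. Cldn34c2, a claudin copy on chromosome X, was at 0.858, 1.15 and 0.740 FPKM in OIR KO and listed at 0 in OIR WT (adjusted p = 0.0097), a call lost without OIR KO 1, OIR WT 1 or OIR WT 3 (0.0535 to 0.0590). Its mean lay under the level set for naming, and it is given because it passed the test. Cldn34c2 reached the filter only with the knockout libraries, in which it was highest, so its p-value is not taken as support either.

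The remaining fallen genes with a name were Gm15446, 2610528A11Rik and Bnip3. Gm15446 (GRCm38 chromosome 5, 109923400 to 109943936, plus strand) was at 0.745, 0.720 and 0.816 FPKM in OIR KO, 12.9, 13.8 and 10.6 FPKM in OIR WT and 13.6, 12.3 and 7.58 FPKM in RA WT. The difference of -3.35 (SE 0.19, adjusted p = 0.000165) held without each library in turn (adjusted p at most 0.00256). 2610528A11Rik, also named Gpr15l in RefSeq, was at 5.48, 6.78 and 4.75 FPKM in OIR KO, 15.4, 16.3 and 23.1 FPKM in OIR WT and 2.95, 2.42 and 2.69 FPKM in RA WT (log2 difference -1.59, SE 0.17, adjusted p = 0.0061). For 2610528A11Rik, as for Bnip3, the knockout lay between retinopathy in wild-type mice and room air.

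Genes of the hypoxia response and glycolysis were lower in the knockout as a list, mostly without passing the test singly. Bnip3, a mitochondrial receptor for mitophagy and a HIF target, was the 1 member of 42 that fell, and 0 rose. It was at 81.4, 118 and 83.5 FPKM in OIR KO, 178, 172 and 202 FPKM in OIR WT and 64.1, 65.4 and 68.5 FPKM in RA WT (log2 difference -0.98, SE 0.14, adjusted p = 0.0377). The Bnip3 call was lost without any library but OIR KO 2 (adjusted p from 0.0592 to 0.171), and it was firmer without OIR KO 2 (log2 difference -1.15, adjusted p = 0.00236). All 3 knockout libraries lay below all 3 OIR WT libraries in 28 of the 42 members, against 7.98% of all genes tested, and above them in 1 member, against 9.73% of all genes. The median log2 difference was -0.47 over the list, and 36 of 42 members were below 0. Like the other lists, this one was chosen with earlier results of these data known, so its counts are a description and no independent test.

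OIR KO 2 lay nearest to wild type in this list. Relative to the OIR WT mean, the median member was at -0.55 in OIR KO 1, -0.25 in OIR KO 2 and -0.56 in OIR KO 3 on the log2 scale, while the OIR WT libraries lay between -0.08 and 0.10 and the RA WT libraries at -0.74 or -0.75. Without OIR KO 2, 34 members lay below OIR WT without overlap, an order that 16.3% of all genes then had, the median was -0.55, and 10 of the 42 members fell (Adm, Bnip3, Egln1, Egln3, Ero1l, P4ha2, Pdk1, Pfkl, Pgk1 and Slc16a3) among the 42 genes changed in all. Without any 1 of the other OIR libraries, at most 1 member was called.

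In promoters, ACGTG is a common form of the core letters that HIF binds, and only this form was searched. The 250 bases upstream of a RefSeq start (GRCm38.p6) are shown for 4 members with small p-values whose window holds these letters. Annotated starts differ, and the windows of P4ha2 and Slc16a3 lie inside the longer GENCODE gene. Capitals mark ACGTG on either strand (CACGT when read on the printed strand); in Bnip3 both strands overlap in CACGTG, which is also the E-box bound by other factors. The Bnip3 window is chr7:138909507-138909756 (minus strand), that of Egln1 chr8:124949255-124949504 (minus strand), that of P4ha2 chr11:54100674-54100923 (plus strand) and that of Slc16a3 chr11:120948817-120949066 (plus strand).
Bnip3: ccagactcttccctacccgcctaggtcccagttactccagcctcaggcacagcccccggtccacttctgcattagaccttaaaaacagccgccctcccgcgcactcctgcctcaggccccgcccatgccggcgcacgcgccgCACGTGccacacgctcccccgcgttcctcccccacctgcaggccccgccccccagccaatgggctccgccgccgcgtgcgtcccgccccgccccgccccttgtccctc
Egln1: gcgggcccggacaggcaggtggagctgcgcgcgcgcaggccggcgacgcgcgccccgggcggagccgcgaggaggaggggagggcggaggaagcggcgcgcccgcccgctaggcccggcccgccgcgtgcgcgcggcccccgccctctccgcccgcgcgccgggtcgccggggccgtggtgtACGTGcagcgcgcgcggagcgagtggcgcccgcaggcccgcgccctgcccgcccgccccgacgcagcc
P4ha2: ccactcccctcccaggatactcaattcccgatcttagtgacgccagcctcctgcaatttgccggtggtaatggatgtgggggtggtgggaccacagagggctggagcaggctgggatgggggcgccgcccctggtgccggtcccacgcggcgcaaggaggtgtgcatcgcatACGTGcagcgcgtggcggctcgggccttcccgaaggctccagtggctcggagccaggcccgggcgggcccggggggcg
Slc16a3: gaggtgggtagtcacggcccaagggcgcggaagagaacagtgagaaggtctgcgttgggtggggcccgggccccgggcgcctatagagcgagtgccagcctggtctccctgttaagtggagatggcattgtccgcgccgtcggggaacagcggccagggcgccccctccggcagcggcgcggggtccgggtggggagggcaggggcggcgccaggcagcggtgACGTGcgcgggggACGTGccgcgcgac

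Among the 36 list members with a promoter in the table, 16 held ACGTG on either strand (44.4%), against 2313 of 10842 promoters of tested genes (21.3%). The letters are a description of the sequence, not a measured site. The list was put together from genes of the hypoxia response, so its share is no result about the knockout. The windows of Pdk1 and Vegfa, also in the list, did not hold the letters. Egln1, the main oxygen-sensing prolyl hydroxylase that marks HIF for destruction, was at 33.1, 47.0 and 33.2 FPKM in OIR KO, 63.8, 64.0 and 81.9 FPKM in OIR WT and 27.3, 28.3 and 28.0 FPKM in RA WT (log2 difference -0.89, SE 0.15, adjusted p = 0.0665). P4ha2, a collagen prolyl hydroxylase subunit, was at 8.12, 10.4 and 8.72 FPKM in OIR KO and 14.5, 13.5 and 16.6 FPKM in OIR WT (log2 difference -0.68, SE 0.11, adjusted p = 0.0722). Slc16a3, the exporter of lactate, was at 29.5, 43.0 and 29.1 FPKM against 89.4, 58.6 and 66.7 FPKM (log2 difference -1.07, SE 0.18, adjusted p = 0.080). In all 3 genes the knockout libraries lay below the OIR WT libraries and OIR KO 2 was the highest of them.

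Several glycolysis genes lay below OIR WT without passing the test. Hk2, hexokinase, was at 27.6, 35.6 and 39.6 FPKM in OIR KO and 53.0, 61.5 and 56.5 FPKM in OIR WT (log2 difference -0.74, SE 0.13, adjusted p = 0.0842). Pgk1, phosphoglycerate kinase, was at 346, 418 and 352 FPKM against 556, 528 and 590 FPKM (log2 difference -0.59, SE 0.10, adjusted p = 0.0817). Pfkfb3, which makes an activator of phosphofructokinase, was at 8.25, 10.9 and 8.78 FPKM against 24.4, 13.8 and 23.2 FPKM (log2 difference -1.06, SE 0.22, adjusted p = 0.169). The groups did not overlap in these genes, and Hk2 lay below its room air level of 45.7 to 53.6 FPKM in every knockout library. Pdk1, a kinase that keeps pyruvate out of the mitochondria, was at 13.5, 19.2 and 13.6 FPKM in OIR KO, 28.3, 26.4 and 31.5 FPKM in OIR WT and 12.4 to 15.2 FPKM in RA WT (log2 difference -0.89, SE 0.14, adjusted p = 0.0665). Among the members in which the groups overlapped were Hk1, Pfkfb4, Aldoc, Gapdh, Car9 and Car12. Gapdh was at 120, 52.7 and 42.6 FPKM in OIR KO and 41.2, 100 and 47.9 FPKM in OIR WT, a spread within groups as wide as that between them.

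**Figure D3:**
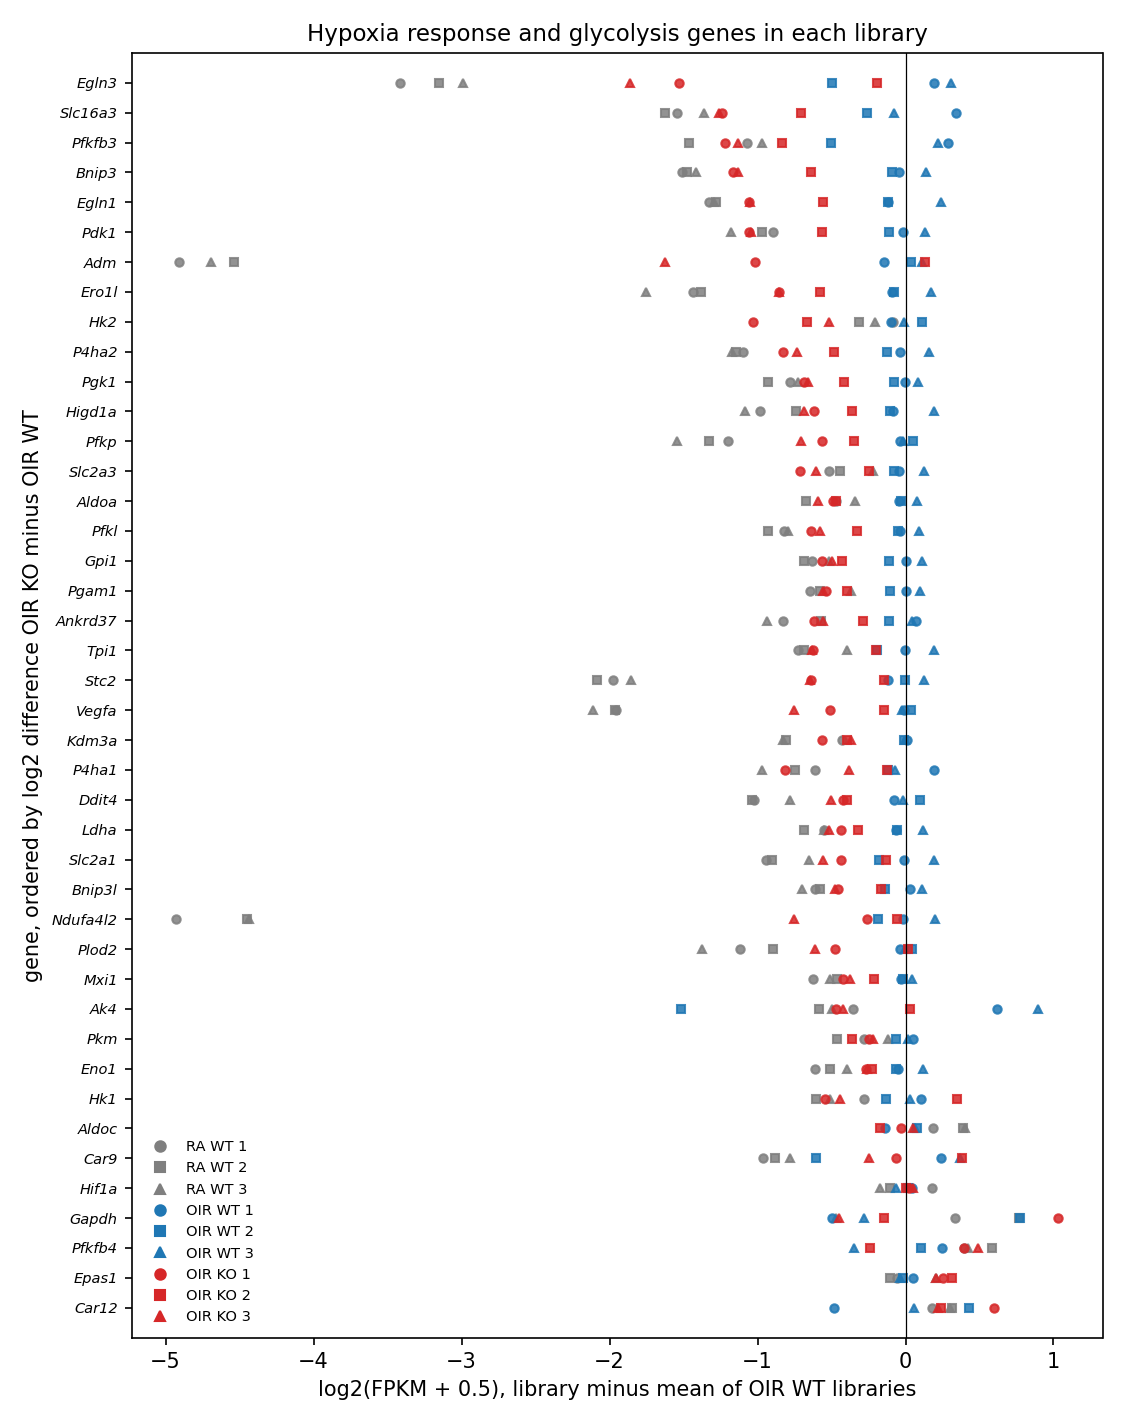
The 42 members of the hypoxia response and glycolysis list, 1 row per gene in the order of the log2 difference; the horizontal axis is log2(FPKM + 0.5) of each library minus the mean of the 3 OIR WT libraries. Colours mark RA WT (grey), OIR WT (blue) and OIR KO (red), and squares mark replicate 2. In 28 rows all red symbols lie left of all blue ones, and the red square of OIR KO 2 is often the rightmost red symbol.

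Secreted angiogenic factors did not pass the test with all libraries fitted. Vegfa, the main growth factor of retinal neovascularisation, was at 191, 245 and 161 FPKM in OIR KO, 270, 278 and 267 FPKM in OIR WT and 62.4 to 69.7 FPKM in RA WT (log2 difference -0.47, SE 0.14, adjusted p = 0.305). Its libraries did not overlap between the genotypes, and without OIR KO 2 the log2 difference was -0.63 (adjusted p = 0.0565). Adm, the vasodilator peptide adrenomedullin, was at 15.3, 34.6 and 9.86 FPKM in OIR KO and 28.4, 32.3 and 34.0 FPKM in OIR WT (log2 difference -0.84, SE 0.37, adjusted p = 0.512). Without OIR KO 2, Adm passed the test. Angpt2, which loosens vessels for sprouting, was at 5.08, 12.6 and 3.31 FPKM against 9.08, 8.29 and 13.7 FPKM (log2 difference -0.70, SE 0.40, adjusted p = 0.623; -1.20 and 0.0889 without OIR KO 2). In Adm and Angpt2 the knockout libraries 1 and 3 lay below wild type and OIR KO 2 did not. Of 30 angiogenic ligands and receptors tested, 0 passed limma's test, with unadjusted p under 0.05 in 3 higher and 1 lower member and a median log2 difference of -0.05. Of the 27 markers of tip cells and neovascular endothelium, 0 passed, with 2 higher and 0 lower at an unadjusted p under 0.05 and a median of -0.07. Esm1, the tip cell marker endocan, was at 3.03, 7.43 and 1.42 FPKM in OIR KO and 4.80, 4.75 and 10.48 FPKM in OIR WT (log2 difference -0.84, SE 0.48, adjusted p = 0.626; -1.37 and 0.168 without OIR KO 2). Aplnr, the apelin receptor and also a member of the tip cell list, was at 7.73, 3.50 and 5.12 FPKM in OIR KO and 2.78, 1.84 and 2.53 FPKM in OIR WT, above it without overlap (log2 difference 1.00, SE 0.24, adjusted p = 0.22). Without OIR KO 2, the median was -0.31 in the tip cell list, with 13 of 27 members below OIR WT without overlap, and -0.22 in the angiogenic list, with 12 of 30 members below. In all genes tested, 16.3% had that order without OIR KO 2.

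Pan-endothelial markers lay on the other side, in a list that also holds genes of barrier endothelium such as Cldn5 and Slco1a4. Of 26 members, 0 passed limma's test, 9 were higher and 1 lower at an unadjusted p under 0.05, and the median log2 difference was 0.41. All knockout libraries lay above all OIR WT libraries in 8 of the 26 (9.73% of all genes tested had this order). Without OIR KO 3 the count was 14, where 14.1% of all genes had this order, and without OIR KO 2 it was 8, where 17.3% had it, with a median of 0.27. Cldn5, the main claudin of the blood-retinal barrier, was at 45.1, 39.9 and 37.2 FPKM in OIR KO, 27.5, 18.8 and 24.7 FPKM in OIR WT and 17.5 to 27.7 FPKM in RA WT (log2 difference 0.78, SE 0.19, adjusted p = 0.223). Slco1a4, a transporter of barrier endothelium, was at 1.38, 1.86 and 1.67 FPKM in OIR KO, 0.819, 1.09 and 0.682 FPKM in OIR WT and 6.27 to 7.495 FPKM in RA WT (log2 difference 0.65, SE 0.15, adjusted p = 0.211). Neither gene overlapped between the genotypes, and neither passed the test. Pecam1 and Cdh5, also in the list, did overlap between the genotypes. Their log2 differences were 0.37 and 0.44 (SE 0.22 and 0.21, adjusted p = 0.6375 and 0.522). The pan-endothelial median was highest in OIR KO 2, at 0.69 on the log2 scale above the OIR WT mean, against 0.33 and 0.20 in OIR KO 1 and 3. That library had more blood and lens RNA than the other knockout libraries, with its blood RNA in the range of OIR WT. The part of that library's makeup in the list was not tested. In bulk tissue, fewer cells of a type and less RNA per cell cannot be told apart.

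No gene of the pericyte and smooth muscle list passed the test. Acta2, smooth muscle actin, was at 11.7, 20.7 and 9.03 FPKM in OIR KO and 23.6, 20.4 and 37.2 FPKM in OIR WT (log2 difference -0.98, SE 0.36, adjusted p = 0.427), while the pericyte receptor gene Pdgfrb was at 7.33, 10.4 and 6.69 FPKM against 7.72, 7.52 and 9.48 FPKM (log2 difference -0.03, SE 0.17, adjusted p = 0.979). The groups overlapped in both. Of 15 members tested, 0 passed limma's test, 1 was higher and 2 were lower at an unadjusted p under 0.05, and the median was -0.08. With all libraries, 1 member lay below OIR WT without overlap and 1 above. Without OIR KO 2 these were 8 and 1, against 16.3% and 17.3% of all genes, and the median was -0.20.

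Mueller glia markers lay mostly above OIR WT. Of 21 Mueller glia markers, 0 passed limma's test, 9 were higher and 2 lower at an unadjusted p under 0.05, and the median log2 difference was 0.28, with 6 members above OIR WT without overlap (9.73% of all genes tested) and 1 below (7.98%). Aqp4, the water channel of glial endfeet, was at 15.9, 15.3 and 17.9 FPKM in OIR KO, 8.83, 12.1 and 8.16 FPKM in OIR WT and 18.2 to 24.8 FPKM in RA WT (log2 difference 0.74, SE 0.16, adjusted p = 0.169). Kcnj10, the potassium channel that clears potassium into the vitreous, was at 11.5, 12.4 and 12 FPKM in OIR KO and 9.69, 8.41 and 7.31 FPKM in OIR WT (log2 difference 0.48, SE 0.12, adjusted p = 0.22). In both genes the knockout lay between OIR WT and RA WT with no overlap with OIR WT, and OIR KO 2 was not apart. Glul was at 745, 559 and 870 FPKM in OIR KO and 373, 662 and 416 FPKM in OIR WT. Rlbp1 was at 168.5, 121 and 190 FPKM against 95.45, 151 and 116 FPKM. The genotypes overlapped in Glul and Rlbp1, with OIR KO 2 the lowest knockout library. Without OIR KO 2, 12 of the 21 markers lay above OIR WT without overlap (17.3% of all genes). Without OIR WT 2 there were 14 (15.6% of all genes).

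Reactive gliosis genes had the lowest list median of the glial lists and the widest spread. The median log2 difference was -0.61, 25 of 29 members were below 0, 0 passed limma's test, and 0 were higher and 1 lower at an unadjusted p under 0.05. Gfap, the intermediate filament of reactive glia, was at 45.5, 173 and 24.3 FPKM in OIR KO and 126, 46.8 and 148 FPKM in OIR WT (log2 difference -0.72, SE 0.75, adjusted p = 0.803; -1.51 and 0.402 without OIR KO 2). Socs3, the feedback inhibitor of STAT3 signalling, was at 6.33, 33.2 and 2.90 FPKM against 25.4, 9.59 and 45.0 FPKM (log2 difference -1.31, SE 0.83, adjusted p = 0.659; -2.24 and 0.214 without OIR KO 2). Edn2, endothelin 2, which stressed photoreceptors make, was at 38.8, 128 and 18.4 FPKM against 118, 36.5 and 116 FPKM (log2 difference -0.80, SE 0.72, adjusted p = 0.768; -1.55 and 0.364 without OIR KO 2). In each, OIR KO 2 lay in the range of OIR WT 1 and 3 or above it, and OIR WT 2 lay near OIR KO 1. The gliosis median relative to the OIR WT mean was -0.86, 0.45 and -1.14 in OIR KO 1, 2 and 3 and 0.12, -0.54 and 0.50 in OIR WT 1, 2 and 3, so no member was free of overlap. Without OIR KO 2 the list median was -0.96, and 19 of 29 members lay below OIR WT without overlap (16.3% of all genes). Erythrocyte genes were likewise lowest in OIR KO 1 and 3, with a summed level over 9 genes of 128, 1082 and 130 FPKM in OIR KO and 1185, 524 and 1450 FPKM in OIR WT; their part in the glial result was not tested. The 28 tested genes of JAK-STAT3 signalling and feedback had a median of -0.07, 0 passed limma's test, and 0 were higher and 2 lower at an unadjusted p under 0.05. With all libraries, 3 of them lay below OIR WT without overlap and 1 above. Without OIR KO 2 these were 10 and 2, against 16.3% and 17.3% of all genes, and the median was -0.13.

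**Figure D4:**
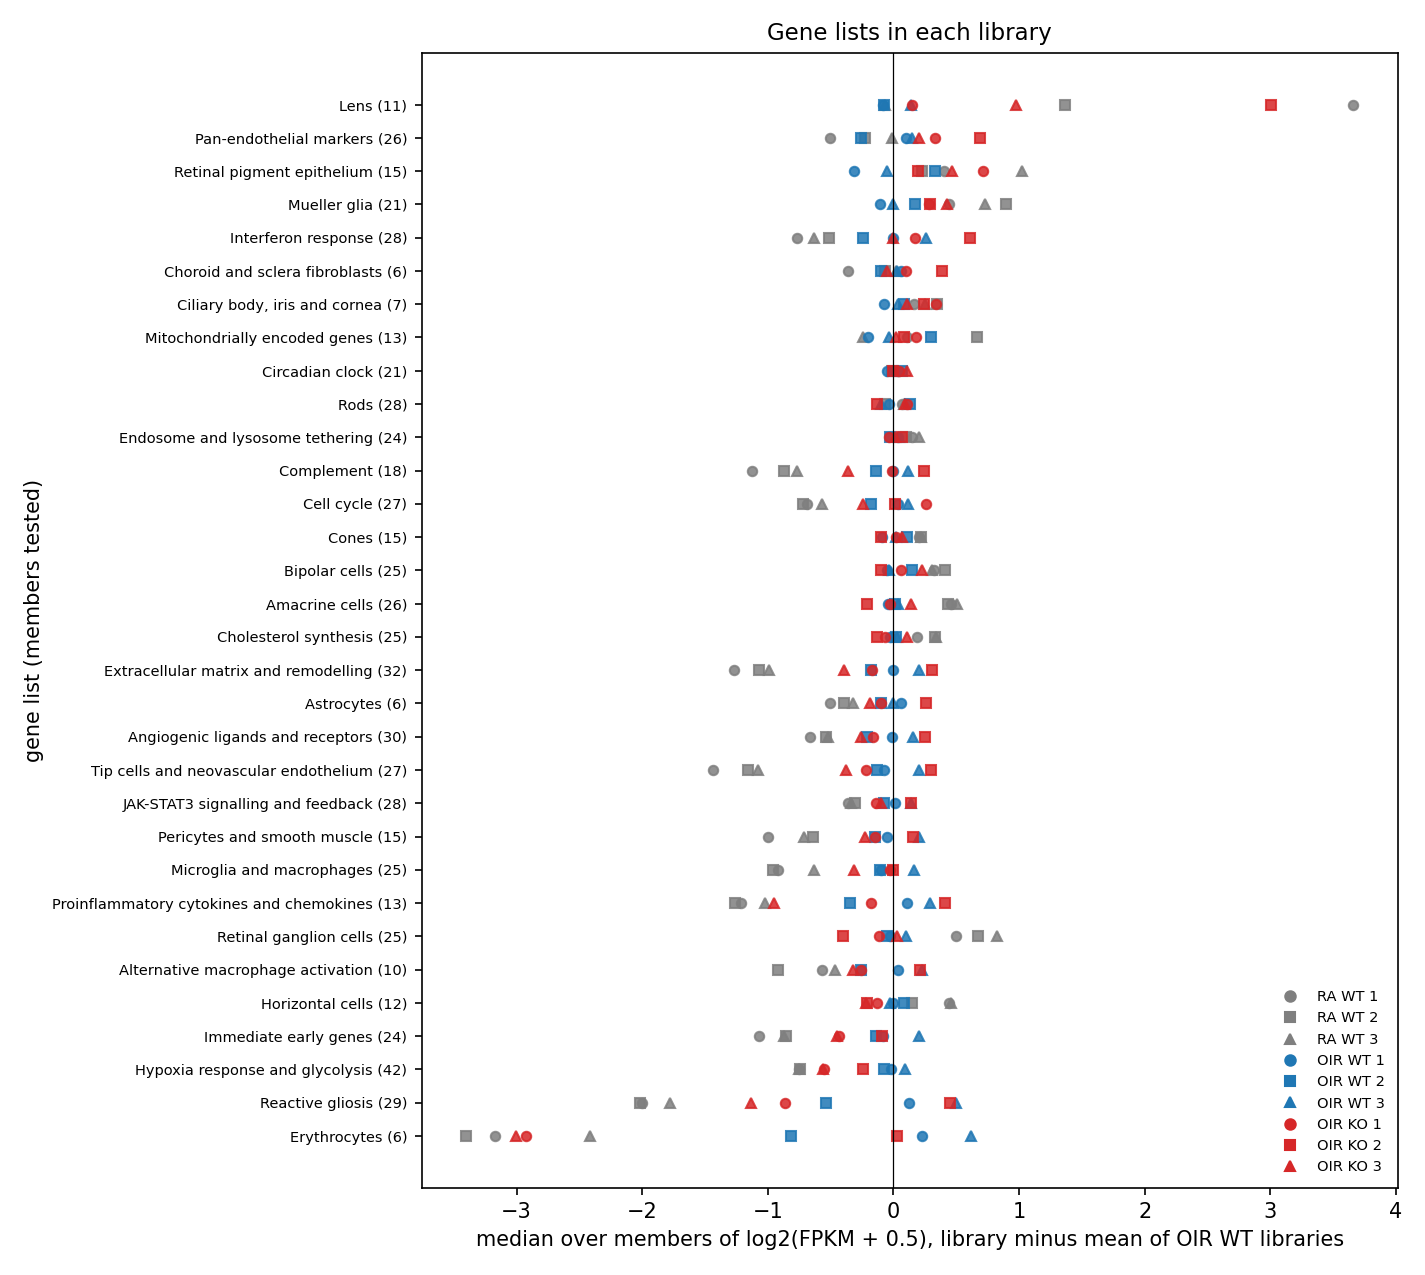
Median over the members of each gene list of log2(FPKM + 0.5) in a library minus the mean of the OIR WT libraries, for lists with at least 6 members tested (the number stands after the name); RA WT is grey, OIR WT blue and OIR KO red, and squares mark replicate 2. The hypoxia list separates red from blue, as do other lists, such as those of pan-endothelial, Mueller glia and horizontal cell markers. In the reactive gliosis and erythrocyte lists OIR KO 2 lies among the OIR WT libraries.

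No immune list held a gene that passed the test. Of 25 microglia and macrophage markers tested, 0 passed limma's test, 0 were higher and 4 lower at an unadjusted p under 0.05, and the median was -0.14. Csf1r, the receptor on which microglia depend, was at 3.46, 3.10 and 2.98 FPKM in OIR KO and 2.81, 3.005 and 3.57 FPKM in OIR WT (log2 difference 0.03, SE 0.14, adjusted p = 0.98). Cx3cr1, the fractalkine receptor, was at 0.726, 2.07 and 1.65 FPKM against 2.23, 2.88 and 2.44 FPKM (log2 difference -0.67, SE 0.24, adjusted p = 0.423). The genotypes overlapped in Csf1r and did not in Cx3cr1. Alternative macrophage activation, the state that interleukin-19 is known to favour, could be followed in 10 of 24 list members, with a median of -0.21. Among these, Arg1, arginase, was at 0.514, 0.751 and 0.265 FPKM in OIR KO and 1.85, 0.613 and 1.37 FPKM in OIR WT (log2 difference -0.78, SE 0.31, adjusted p = 0.458), and 0 passed limma's test, with 0 higher and 2 lower at an unadjusted p under 0.05. Mrc1, the mannose receptor, stayed below the filter, at 0.335 to 0.562 FPKM in OIR KO and 0.368 to 0.495 FPKM in OIR WT.

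Inflammatory and interferon genes gave no call either. Of 13 proinflammatory cytokines and chemokines tested, 0 passed limma's test, 1 was higher and 2 were lower at an unadjusted p under 0.05, and the median was -0.16. Without OIR KO 2 that median was -0.44, with 3 members below OIR WT without overlap and 1 above (16.3% and 17.3% of all genes). The chemokine Ccl3 was at 0.453, 1.21 and 0.331 FPKM in OIR KO and 1.73, 1.04 and 2.07 FPKM in OIR WT (adjusted p = 0.35). Of 28 interferon response genes, 0 passed, 6 were higher and 1 lower at an unadjusted p under 0.05, and 23 were above 0 with a median of 0.22. The interferon median was 0.61 above the OIR WT mean in OIR KO 2, against 0.17 and -0.00 in OIR KO 1 and 3, and the list's median difference was 0.08 without OIR KO 2. Gbp3, a guanylate-binding protein induced by interferon, was at 2.79, 4.29 and 2.504 FPKM in OIR KO and 1.36, 1.67 and 1.72 FPKM in OIR WT (log2 difference 0.80, SE 0.21, adjusted p = 0.242), without overlap. Of 18 complement genes, 0 passed, with 4 higher and 2 lower at an unadjusted p under 0.05 and a median of -0.02. C3, the central component, was at 0.867, 1.45 and 0.639 FPKM in OIR KO and 1.92, 1.62 and 1.89 FPKM in OIR WT (log2 difference -0.67, SE 0.22, adjusted p = 0.369). All knockout libraries lay below all OIR WT libraries in C3.

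No neuronal marker passed the test. The median log2 difference was 0.02 over 28 rod genes, -0.04 over 15 cone genes, -0.04 over 25 bipolar genes and -0.04 over 26 amacrine genes, and 0 members of these lists passed limma's test (2, 0, 5 and 2 higher and 0, 1, 1 and 3 lower at an unadjusted p under 0.05). Retinal ganglion cell markers had a median of -0.17 over 25 genes, 21 of them below 0. Of these genes 0 passed, with 1 higher and 5 lower at an unadjusted p under 0.05, and the median was -0.0036 without OIR KO 2. Nefh, the neurofilament heavy chain of ganglion cell axons, was at 15.5, 18.2 and 18.2 FPKM in OIR KO, 30.8, 24.7 and 28.9 FPKM in OIR WT and 27.9 to 35.5 FPKM in RA WT (log2 difference -0.68, SE 0.12, adjusted p = 0.080), with all knockout libraries below all wild-type ones. Rbpms, a marker of all ganglion cells, was at 13.6, 12.8 and 13.1 FPKM against 13.4, 14.6 and 12.3 FPKM (log2 difference -0.02, SE 0.18, adjusted p = 0.984). The 12 horizontal cell markers had a median of -0.28, 0 passed, and 0 were higher and 4 lower at an unadjusted p under 0.05; Onecut1, their transcription factor, was at 0.396, 0.694 and 0.740 FPKM against 1.09, 1.72 and 1.19 FPKM (log2 difference -0.72, SE 0.20, adjusted p = 0.298).

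Clock genes, a list chosen with earlier results of these data known, included the risen Usp2. Of 21 members, 7 lay above OIR WT without overlap (9.73% of all genes tested) and 1 below (7.98%), and the median log2 difference was 0.05. Per1, a core repressor of the clock that also answers to hormones and light, was at 26.7, 25.6 and 30.3 FPKM in OIR KO, 20.1, 21.5 and 21.1 FPKM in OIR WT and 18.8 to 20.6 FPKM in RA WT (log2 difference 0.39, SE 0.09, adjusted p = 0.185). The nuclear receptor gene Nr1d1 was at 60.6, 56.9 and 64.4 FPKM against 58.4, 71.8 and 63.3 FPKM (log2 difference -0.09, SE 0.10, adjusted p = 0.832). The labels give no hour of tissue collection, and its part in these genes was not tested. Of the 24 immediate early genes tested, which stress and handling switch on within minutes, 0 passed limma's test, 0 were higher and 7 lower at an unadjusted p under 0.05, and the median was -0.34. Jun was at 29.2, 37.8 and 29.2 FPKM in OIR KO and 41.1, 39.9 and 56.2 FPKM in OIR WT (log2 difference -0.50, SE 0.15, adjusted p = 0.338). With all libraries, 3 immediate early genes lay below OIR WT without overlap and 0 above. Without OIR KO 2 these were 14 and 1, against 16.3% and 17.3% of all genes, and the median was -0.44.

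The genes next to Il19 were examined because a targeted allele is bred together with its neighbours on the chromosome. Within 2 Mb of Il19 on chromosome 1, 30 genes were tested and 0 passed limma's test. At an unadjusted p under 0.05 there were 2, Slc41a1, a magnesium transporter (log2 difference -0.60, SE 0.17), and Cdk18, a cyclin-dependent kinase (log2 difference 0.39, SE 0.13), and the smallest adjusted p of the 30 was 0.299. Without OIR KO 2, Slc41a1 passed the test (log2 difference -0.83, adjusted p = 0.0209). Of the 801 genes tested on chromosome 1, 2 changed, Ipo9 at 4.45 Mb and Crb1 at 8.26 Mb from Il19, both at higher coordinates. Crb1 lies at 139197056 to 139377100 on the minus strand and Ipo9 at 135382312 to 135430499 on the minus strand (GRCm38). The substrain and the breeding of both genotypes are not given, so an effect of IL-19 loss and one of linked or background alleles cannot be told apart for any gene named here.

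**Figure D5:**
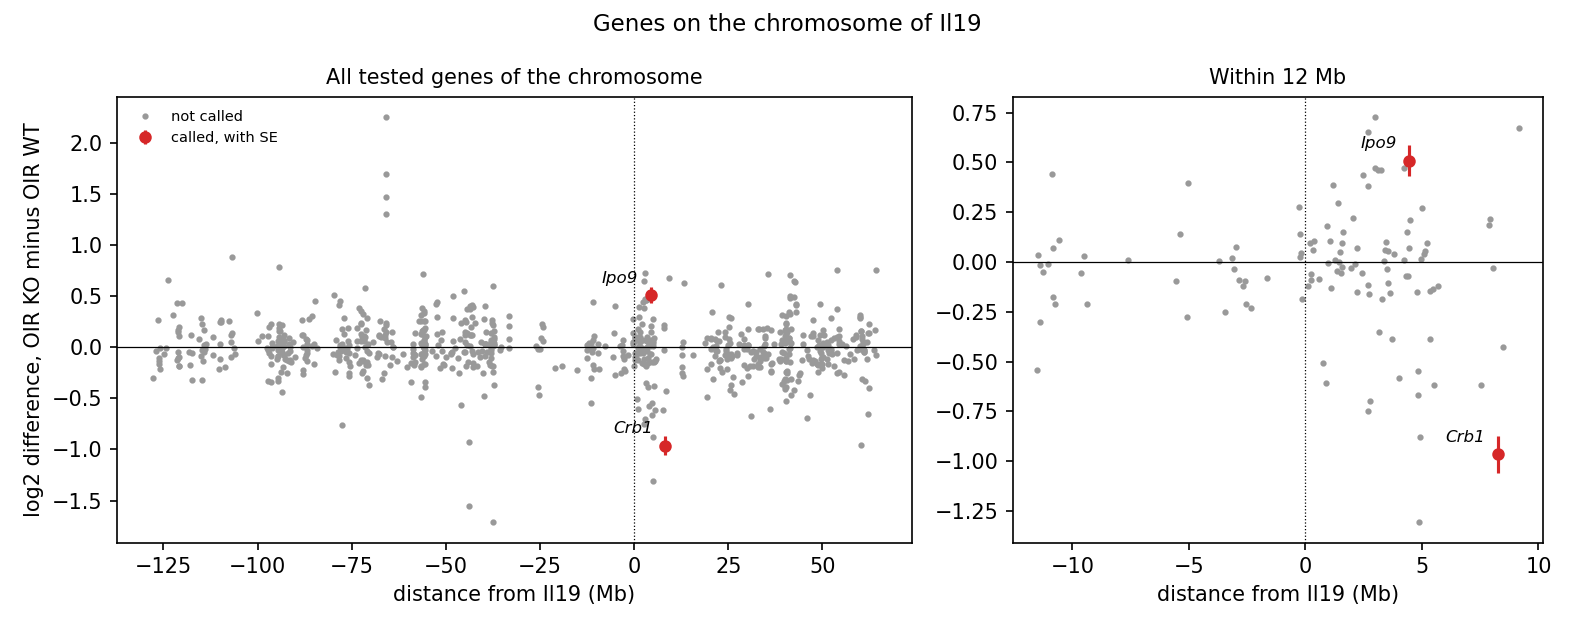
Log2 difference OIR KO minus OIR WT of each of the 801 genes tested on chromosome 1 against the distance of the gene from Il19 in Mb (left), and the same within 12 Mb (right). Grey points did not pass the test; red points with SE bars are Ipo9 and Crb1, which lie 4.45 and 8.26 Mb from Il19 on the side of higher coordinates.

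Markers of tissue that adheres to the retina also differed between libraries. The 15 tested markers of the retinal pigment epithelium had a median log2 difference of 0.40, and their summed level over 17 genes was 505, 388 and 470 FPKM in OIR KO and 310, 408 and 347 FPKM in OIR WT, none of them listed at 0. The summed level of 21 lens genes was 41.2, 106 and 35.5 FPKM in OIR KO against 42.8, 29.8 and 37.9 FPKM, with 8, 1 and 2 of the genes listed at 0 in OIR KO 1, 2 and 3 and 11, 13 and 5 in OIR WT 1, 2 and 3. No gene of these lists or of the erythrocyte list passed limma's test, with 3, 1 and 0 higher and 0, 0 and 3 lower at an unadjusted p under 0.05. Their part in the differences between the genotypes was not tested.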

How the data were processed

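RNA of mouse retina was sequenced from 9 libraries (Trizol extraction and NEBNext Ultra libraries, per the labels' protocols). Reads were aligned with HISAT2 to GRCm38, per the submitters' processing notes, without stated versions. For the quantifier, the annotation and the strand setting, no statement is given in the sources used here. The values used are FPKM per gene, as deposited by the authors in 1 table of 25108 rows. FPKM are not counts, so no count test was run. Low values lay on steps of whole reads too rarely to recover counts, so absolute depth is unknown and its precision cannot be given.

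Genes with at least 0.5 FPKM in at least 3 of 9 libraries (15678) were tested on log2(FPKM + 0.5) with limma 3.58.1 in R 4.3.3: 1 mean per group over all 9 libraries, so that RA WT adds to the estimate of spread, moderated variances with trend and robust fitting, the contrast OIR KO minus OIR WT, and Benjamini-Hochberg adjustment over all genes tested. The test was checked on simulated data. Il19 was compared by an exact permutation test. Coordinates are GRCm38, matched by Ensembl ID for 22022 of 22036 IDs.

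Named genes were the interleukin-10 family; in each direction up to 15 changed genes with no overlap between genotypes and a group mean of at least 1 FPKM, filled to 10 by smallest p; key members, changed members and the 2 smallest p-values of each list; and genes within 2 Mb of Il19. The members and lists were chosen with earlier results of these data known. Alternatives were the pseudocount, the filter, the libraries fitted, scaling, a Y-linked covariate, variance moderation, a replicate block and leaving out each library.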

Additional observations from a re-analysis of the deposited data

How the results depend on the processing

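The count of 21 changed genes was 13 with a filter at 1 FPKM, 13 without trend and robust fitting, and 16 with a Y-linked covariate. It was 11 to 42 without each library in turn (42 without OIR KO 2). With the Y-linked covariate, Bnip3, Ip6k2, Usp2, Ipo9 and Dynlt1b were among the calls lost. No member of the hypoxia and glycolysis list was then called. With a replicate block, 8 genes were called; same-numbered OIR KO and OIR WT libraries did not deviate together (r = -0.005, -0.353 and -0.247), so the numbers are not taken to pair samples. Hypoxia and glycolysis members below OIR WT without overlap numbered 27 to 34 and pan-endothelial members above it 8 to 14 (14 without OIR KO 3). These 2 counts were taken only under the alternatives of the filter, the scaling and leaving out each OIR library. For Hypoxia response and glycolysis, median log2 difference values ran from -0.546 to -0.422. Among 4202 single-gene values under alternatives, 141 lost their call, 16 gained one and 0 reversed. Median scaling moved the median of all genes by 0.0192 and quantile normalization by 0.0085 (log2). Counts and medians of the gene lists without each OIR library, and the Entpd4 sum without Gm16867, were chosen after seeing the data. With 3 libraries per genotype and unknown depth, small differences and genes near 0.5 FPKM are poorly resolved.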

Other observations

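Genes on 1 side of Il19 differed more often in size than genes elsewhere, in a window of 10 Mb chosen after the values were seen and given as a description with no test. Of 82 genes tested within 10 Mb at higher coordinates, 16 (19.5%) had a log2 difference of at least 0.5 in size, and 11 (13.4%) an unadjusted p under 0.05. Of 24 genes within 10 Mb at lower coordinates, 0 had such a difference and 0 such a p. On the rest of the chromosome, 33 of 695 genes (4.75%) had a log2 difference of at least 0.5 in size, as had 661 of 13186 genes (5.01%) on other chromosomes. By p the window lay closer to the rest: 70 of those 695 genes (10.1%) and 1296 of the 13186 (9.83%) had an unadjusted p under 0.05.

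The copied homeobox genes Duxbl1, Duxbl2 and Duxbl3, a family picked after its values were seen, summed to 11.6, 9.35 and 10.3 FPKM in OIR KO, 45.8, 32.2 and 36.6 FPKM in OIR WT and 37.9, 45.6 and 23.6 FPKM in RA WT. No Duxbl copy was among the changed genes.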
